A study of Mus musculus with 2 samples.

Results

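Sebum is made by sebocytes, the cells of the sebaceous gland, which opens into the hair follicle of the skin. These cells join fatty acids to fatty alcohols to give wax esters, esterify cholesterol and store triglycerides, and then burst and release the whole mixture. Mouse sebum is known for its wax esters, and the gland lies in the dermis below the epidermis, beside the follicle. The 10 genes described here were Awat1, Far2, Scd3, Soat1, Fa2h, Sec14l4, Ces4a, Sdr16c6, Rarres1 and Clca3a2, out of 19465 genes measured. They were found by their symbols in the gene list of the count matrix, and all 10 were present. The group was put together with measured values of these same libraries in view, namely joint detection in spots and a difference between the sections, so their co-detection and their section difference are described here without any test. Of the 10, 5 encode enzymes that build sebum or sphingolipid components (Awat1, Far2, Scd3, Soat1 and Fa2h), and the other 5 are not all enzymes of lipid synthesis.

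Spatial transcriptomics was measured in 2 sections of mouse skin, each 10 µm thick, fixed in formalin, embedded in paraffin and placed on an 11 mm capture area. S1pr2 fl/fl is the genotype of one section, with both S1pr2 alleles floxed and no Cre to delete them, and this section is called Cre-negative below. S1pr2 fl/fl K14-Cre is the genotype of the other, called the K14-Cre section. There, Cre under the keratin 14 promoter deletes S1pr2, a receptor for sphingosine 1-phosphate, in keratin 14-expressing cells, which include the basal keratinocytes of epidermis, follicle and gland. IMQ is imiquimod, a TLR7 agonist that causes psoriasis-like inflammation, and both mice were 8 weeks old, were depilated 1 day before and received 62.5 mg of 5% IMQ cream daily for 7 days. An untreated section was not analysed here, so every value comes from IMQ-treated skin. The question was how skin without S1pr2 in keratinocytes differed from skin with it. With 1 library per genotype there is no replicate check, and no p-value is given. A spot is a small region that can hold several cells or parts of cells, and spots are not replicates.

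A unique molecular identifier (UMI) marks 1 captured molecule. The Cre-negative section held 1282 spots with 5315351 UMIs (median 3542.5 per spot), and the K14-Cre section 981 spots with 2845826 UMIs (median 2319). S1pr2 itself had 154 UMIs, 29.0 per 1000000 UMIs of the section (CPM; 95% Poisson interval, 24.6 to 33.9), against 54 UMIs and 19.0 CPM (14.3 to 24.8). Whether its probes lie in the deleted part is not given in the sources used here. The libraries stood apart in ways that touch the genes below. The 1226 odour, taste and pheromone receptor genes, few of which skin is known to use, held 2715 CPM against 7330 CPM, or a mean of 11.8 against 17.0 UMIs per gene. All 7 muscle markers were at least 2-fold higher in the K14-Cre section (sum 16938 against 57874 CPM) and 6 of 10 keratinocyte markers at least 2-fold lower (41179 against 13443 CPM). Of all 16838 genes with at least 30 UMIs over both sections, 26.1% were at least 2-fold higher there and 4.77% lower. None of the muscle or keratinocyte markers was at 0 in either section. The 19 Cre-negative spots on the first 4 array columns, at the left edge, were deep (median 11360 UMIs). The sections shared 357 spot barcodes, which are positions on the array and not cells. All intervals are at 95% and cover counting error only.

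All 10 genes were lower in the K14-Cre section. Together they held 9322 UMIs, or 1754 CPM (1718 to 1790), in the Cre-negative section. In the K14-Cre section they held 1742 UMIs, or 612 CPM (584 to 642). The log2 ratio was -1.52 (conditional binomial interval, -1.59 to -1.44). At least 2-fold lower were 8 of the 10 genes, and none was 2-fold higher. Over all 16838 genes that had 30 UMIs or more in both sections together, 4.77% were at least 2-fold lower and 26.1% at least 2-fold higher. The median log2 ratio was -1.41 for the 10 genes and 0.34 for all genes. The all-gene median was -0.003 when the mean receptor gene UMIs of each section were taken off each gene. Among genes with at least 100 UMIs over both sections, which all 10 have, 6.92% were at least 2-fold lower and 6.73% higher. Nothing is read from these shares, since the genes were selected on this difference. In a spot, fewer sebocytes and less RNA per sebocyte cannot be told apart. The keratinocyte marker sum above was also lower in the K14-Cre section, and the muscle and receptor gene sums higher. Of 4 blood markers 3 were at least 2-fold lower (sum 1457 against 336 CPM, log2 ratio -2.12). Of 7 late keratinocyte markers 6 were lower and 1 higher by this measure (11700 against 3256 CPM, log2 ratio -1.85). The adipocyte sum was higher (1792 against 3171 CPM, log2 ratio 0.82). Its log2 ratios ran from -0.27 (Pck1) to 1.44 (Thrsp), with 1 of 10 markers at least 2-fold higher. Hair follicle markers, low in counts, summed higher (31.0 against 67.8 CPM, log2 ratio 1.13), with 4 of 8 at least 2-fold higher. Dermis markers summed higher too (log2 ratio 0.42), with none past 2-fold. None of these markers was at 0 in either section. The part of all these in the result was not tested.

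The wax ester and sterol ester enzymes come first. Awat1 (ENSMUSG00000015665, GRCm38.p6 chromosome X, 100572247 to 100578206) joins fatty alcohols to fatty acids to form wax esters. It had 462 UMIs (86.9 CPM, 79.2 to 95.2) in 185 Cre-negative spots, and 110 UMIs (38.7 CPM, 31.8 to 46.6) in 48 K14-Cre spots. Far2 (ENSMUSG00000030303, chromosome 6, 148047416 to 148182758) reduces fatty acids to the fatty alcohols that wax esters need. It held 2014 UMIs (379 CPM, 363 to 396) in 449 spots against 275 UMIs (96.6 CPM, 85.5 to 109) in 127 spots. The log2 ratio of Far2, -1.97 (-2.16 to -1.79), was further from 0 than that of Awat1, -1.17 (-1.48 to -0.87), and the intervals did not overlap. Soat1 (ENSMUSG00000026600, chromosome 1, 156428108 to 156474328) esterifies cholesterol. It gave 886 UMIs (167 CPM, 156 to 178) in 319 spots against 218 UMIs (76.6 CPM, 66.8 to 87.5) in 122 spots, a log2 ratio of -1.12 (-1.34 to -0.91).

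The fatty acid enzymes follow. Fa2h (ENSMUSG00000033579, chromosome 8, 111345138 to 111393821) puts a hydroxyl group on fatty acids, which then enter sphingolipids and sebum. It was the most counted of the 10, with 2581 UMIs (486 CPM, 467 to 505) in 495 spots against 425 UMIs (149 CPM, 135 to 164) in 158 spots. Its log2 ratio was -1.70 (-1.85 to -1.55), and a single Cre-negative spot held up to 124 of its UMIs, against at most 22 in the other section. Scd3 (ENSMUSG00000025202, chromosome 19, 44203288 to 44244016) is a skin desaturase that adds a double bond to saturated fatty acids. Its counts were low, 189 UMIs (35.6 CPM, 30.7 to 41.0) in 102 spots against 56 UMIs (19.7 CPM, 14.9 to 25.6) in 29 spots. The log2 ratio of Scd3 was -0.85 (-1.31 to -0.42), short of a 2-fold difference. Its 56 UMIs compare with 45 UMIs at the 99th percentile of the receptor genes in that section.

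The remaining 5 genes have less settled parts in sebum. Sec14l4 (ENSMUSG00000019368, chromosome 11, 4031378 to 4048426), of a family of lipid-binding transfer proteins, had 506 UMIs (95.2 CPM) in 214 spots against 114 UMIs (40.1 CPM) in 63 spots. Ces4a (ENSMUSG00000060560, chromosome 8, 105131800 to 105150109), a member of the carboxylesterase family, had 646 UMIs (122 CPM) in 248 spots against 201 UMIs (70.6 CPM) in 88 spots. Its log2 ratio of -0.78 (-1.02 to -0.55) was the one nearest to 0 of the 10. Sdr16c6 (ENSMUSG00000071019, chromosome 4, 4055926 to 4077514), a short-chain dehydrogenase/reductase, had 966 UMIs (182 CPM) in 359 spots against 173 UMIs (60.8 CPM) in 102 spots. Rarres1 (ENSMUSG00000049404, chromosome 3, 67478886 to 67515523), named for its response to retinoids, had 839 UMIs (158 CPM) in 301 spots against 143 UMIs (50.2 CPM) in 81 spots. Clca3a2 (ENSMUSG00000028262, chromosome 3, 144780581 to 144819623) belongs to the regulators of calcium-activated chloride channels. It had 233 UMIs (43.8 CPM) in 128 spots against 27 UMIs (9.49 CPM) in 18 spots. That count of 27 lies below the 99th percentile of the receptor genes in the K14-Cre section. The log2 ratio of Clca3a2 was -2.21 (-2.84 to -1.63), against a level within the range of these receptor genes. It moved to -3.57 when the mean receptor gene UMIs of each section were taken off. The log2 ratios of Rarres1, Sdr16c6 and Sec14l4 were -1.65, -1.58 and -1.25.

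**Figure D1:**
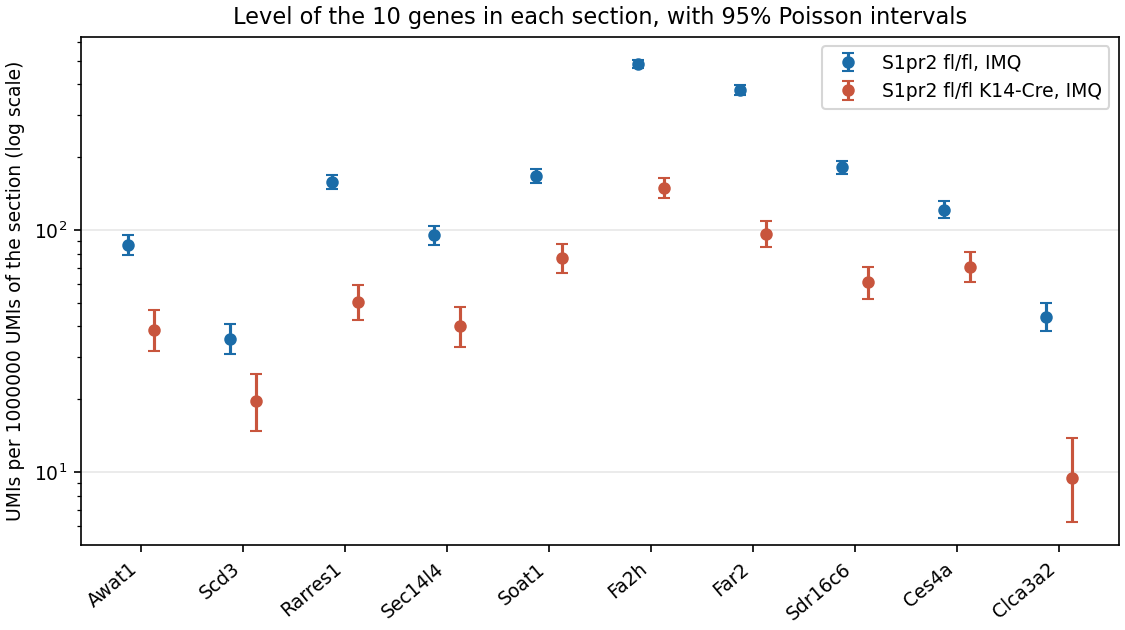
Level of each of the 10 genes in UMIs per 1000000 UMIs of the section (log axis) for the Cre-negative (S1pr2 fl/fl) and the K14-Cre (S1pr2 fl/fl K14-Cre) sections, 1 library each, with 95% Poisson intervals that cover counting error only. Every gene lies lower in the K14-Cre section, from Clca3a2 (43.8 against 9.49 CPM) to Ces4a (122 against 70.6 CPM), and no gene's intervals overlap.

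The genes were concentrated in few spots. In the Cre-negative section, 64 spots (4.99%) held 50% of the UMIs of the 10 genes, against 279 spots (21.8%) for 50% of all UMIs. The corresponding numbers in the K14-Cre section were 48 spots (4.89%) and 238 spots (24.3%). At least 1 of the genes was found in 837 of 1282 Cre-negative spots (65.3%, Clopper-Pearson interval, 62.6 to 67.9%) and in 406 of 981 K14-Cre spots (41.4%, 38.3 to 44.5%). At least 3 of the 10 genes were found in 438 spots (34.2%, 31.6 to 36.8%) and in 112 spots (11.4%, 9.49 to 13.6%). These are called multi-gene spots below. All 10 genes were found together in 12 Cre-negative spots and in 0 of 981 K14-Cre spots (a count of 0 allows up to 0.306%). The most there was 9 genes, in 2 spots. At the edge of this definition, Cre-negative spots with 2 of the genes held a median of 3 UMIs of them and spots with 3 of the genes a median of 5. In the K14-Cre section the medians were 2 and 4 UMIs.

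**Figure D2:**
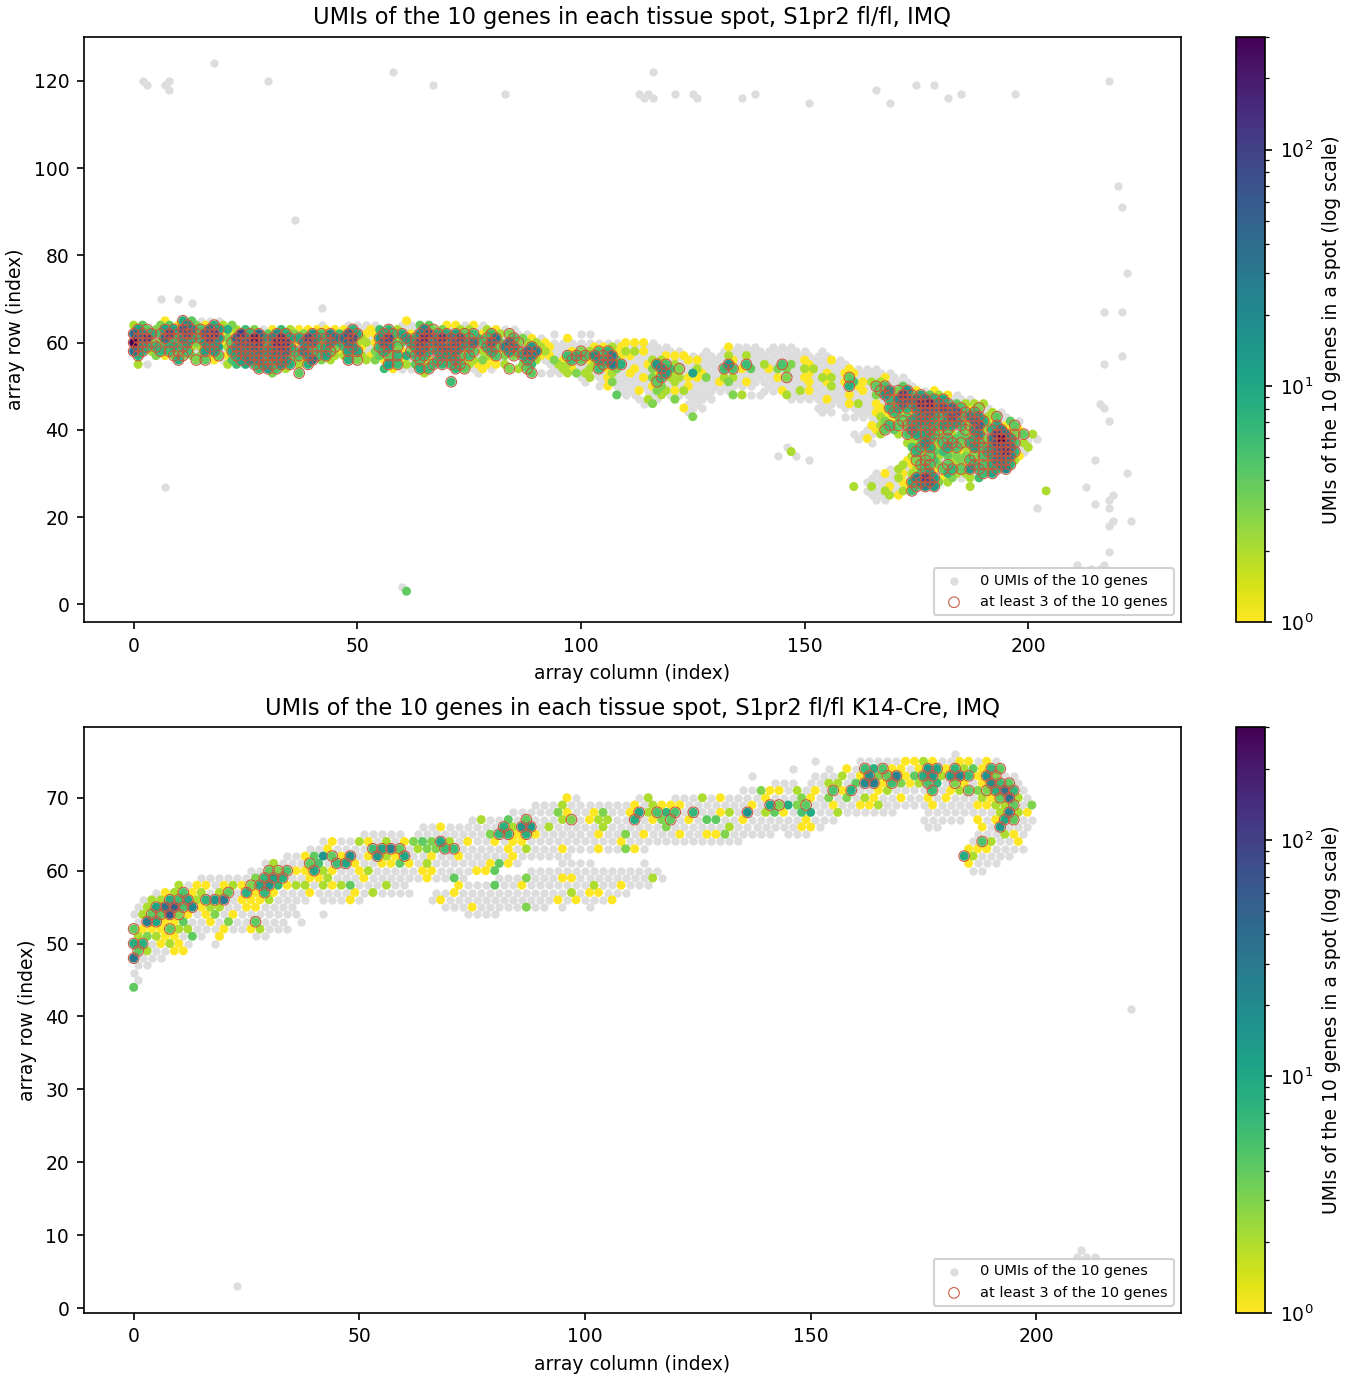
Tissue spots of each section at their array column and row (indices), coloured by the UMIs of the 10 genes in the spot (log scale), grey where there were 0, with multi-gene spots (at least 3 of the 10 genes) circled. Multi-gene spots are many at both ends of the Cre-negative section and fewest just right of its middle (438 of 1282 spots in all). In the K14-Cre section (112 of 981 spots) they form small groups and are also more frequent towards both ends.

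Depth was bound up with these shares. The multi-gene spots had a median of 6220 UMIs against 1783 in the other Cre-negative spots, and 3331 against 2163 in the K14-Cre section. Among spots with 8000 UMIs or more, 71.6% (64.2 to 78.3%) of 169 Cre-negative spots and 27.3% (13.3 to 45.5%) of 33 K14-Cre spots were multi-gene. Among spots with 500 to 2000 UMIs the order turned, with 3.70% (1.79 to 6.71%) of 270 spots and 6.05% (3.88 to 8.94%) of 380 spots, and these intervals overlapped. The summed level of the 10 genes in those shallow spots was close, at 710 against 664 CPM. It was 1041 against 604 CPM at 2000 to 4000 UMIs and 1737 against 594 CPM at 4000 to 8000 UMIs. At 8000 UMIs or more it was 2236 against 608 CPM, so the level difference moved with depth. When spots of 1000 UMIs or more were thinned to 1000 UMIs each, at least 1 of the genes was left in 54.1% (50.9 to 57.2%) of 978 Cre-negative spots and 28.5% (25.5 to 31.6%) of 870 K14-Cre spots. At least 3 of the genes were left in 119 spots (12.2%, 10.2 to 14.4%) and 40 spots (4.60%, 3.30 to 6.21%). After this thinning the Cre-negative share was still the higher one, and the counting intervals did not overlap. Spots are not replicates and the genes were selected on this difference, so this is a description and not a test.

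Within a section the genes were uneven along its length. When the array columns that hold tissue were divided into 4 segments of similar number of spots with at least 500 UMIs, the Cre-negative segments held 1985, 1501, 870 and 1869 CPM of the 10 genes from left to right. The third segment was shallow, with a median of 1173 UMIs per spot, and 8.61% of its spots were multi-gene, against 58.7% in the first segment. The K14-Cre segments held 586, 439, 428 and 938 CPM. The ranges of the sections therefore overlapped, since the fourth K14-Cre segment (865 to 1015 CPM) was not below the third Cre-negative segment (781 to 967 CPM). Segments of a section are not replicates.

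The 10 genes were often detected in the same spots. The overlap of a pair is the number of spots with both genes over the number with either. Across the 45 pairs the median overlap was 29.1% in the Cre-negative section and 14.3% in the K14-Cre section. Fa2h and Far2 overlapped the most in both, in 332 of 612 spots (54.2%) and 69 of 216 spots (31.9%). Scd3 and Clca3a2 overlapped the least, in 21 of 209 spots (10.0%) and in 0 of 47 spots (a count of 0 allows up to 6.38%). Of the 185 Cre-negative spots with Awat1, 166 (89.7%) held at least 2 of the other 9 genes, against 38.7% of the spots without Awat1. For the 48 K14-Cre spots with Awat1 the shares were 66.7% and 15.2%. Awat1 stood alone in 7 spots (3.78%) and 11 spots (22.9%), and Clca3a2 in 11 of 128 spots (8.59%) and 8 of 18 spots (44.4%). Thinned to 1000 UMIs, the median overlap fell to 9.55% and 5.88%. The overlap at full depth therefore moves with the depth of the spots.

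**Figure D3:**
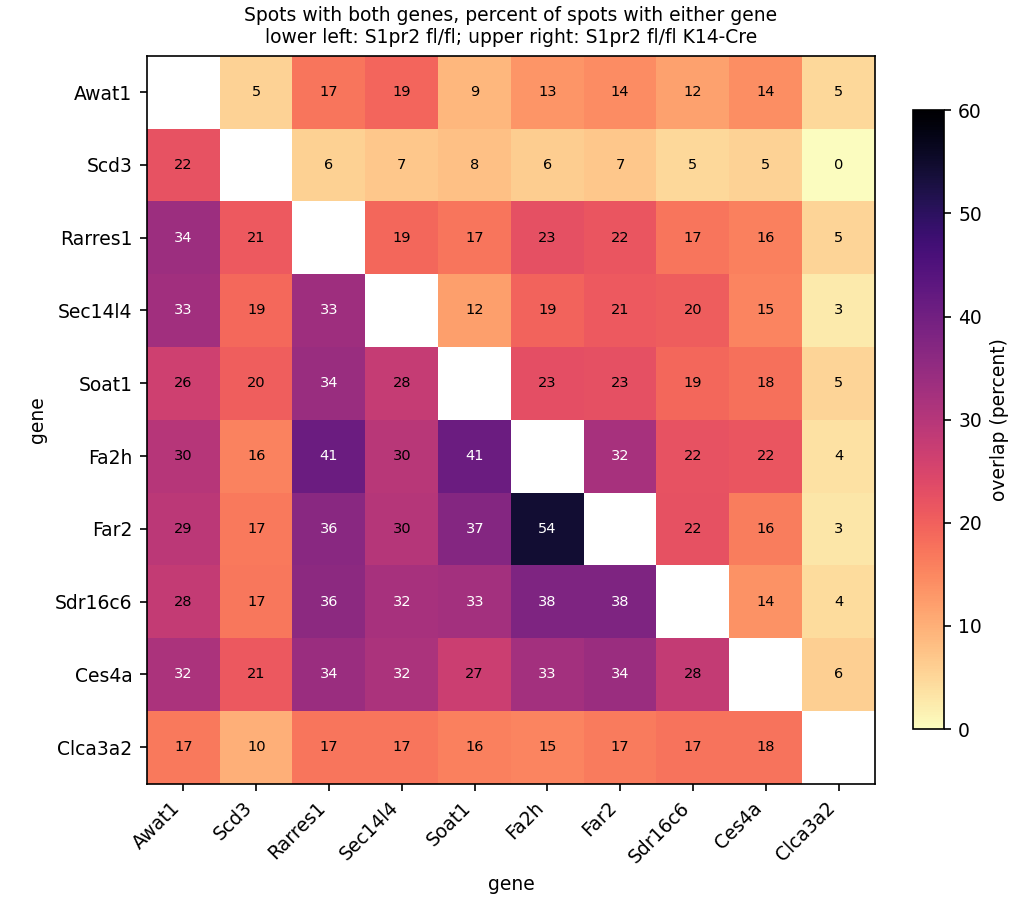
Overlap of each pair of the 10 genes, as the percentage of spots with both genes among spots with either, for the Cre-negative section (lower left) and the K14-Cre section (upper right). Fa2h and Far2 overlap the most in both sections (54.2% and 31.9%), and the row and column of Clca3a2 are among the palest.

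The level inside multi-gene spots depended on how the spots were chosen. In the multi-gene spots the 10 genes held 2787 CPM (2728 to 2847) in the Cre-negative section and 2701 CPM (2551 to 2859) in the K14-Cre section, a log2 ratio of -0.05 (-0.13 to 0.04). There 1 of the 10 genes, Clca3a2 (60.9 against 20.3 CPM, from 184 and 9 UMIs), was at least 2-fold lower and none 2-fold higher. Over the 11675 genes with enough UMIs there, 13.4% were at least 2-fold lower and 15.6% at least 2-fold higher. Ces4a was higher in the K14-Cre spots (192 against 299 CPM, log2 ratio 0.64, 0.35 to 0.91) and Far2 lower (608 against 457 CPM, log2 ratio -0.41, -0.63 to -0.20). A shallow spot needs a higher level to show 3 genes, however. When the spots were chosen on 1000 drawn UMIs and the level was measured in the UMIs not drawn, it was 6208 CPM (6029 to 6390) in 119 spots and 4460 CPM (4041 to 4910) in 40 spots. The log2 ratio was then -0.48 (-0.63 to -0.33). Far2 gave -1.01 (-1.40 to -0.65) in this split, Fa2h -0.48 (-0.76 to -0.21), Ces4a 0.00 (-0.52 to 0.49) and Sec14l4 0.31 (-0.22 to 0.81). The other members were below 0. Sdr16c6 gave -0.55 (-1.09 to -0.06) and Clca3a2 -3.06 (-8.39 to -0.53), the latter from 1 UMI in the K14-Cre spots. Scd3 (-1.05), Awat1 (-0.46), Rarres1 (-0.36) and Soat1 (-0.20) had intervals that span 0.

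The summed level of the 10 genes was highest in spots rich in other markers of the gland. Of 12 sebaceous gland markers that are not among the genes, 11 were measured, and the upper 10% of spots by their summed CPM were taken, among spots with at least 500 UMIs. The 10 genes held 7138 CPM in these 110 Cre-negative spots against 1134 CPM in the other spots, 6.30 times as much. In the 95 spots of the K14-Cre section they held 2652 against 405 CPM, 6.55 times as much. Fa2h was 8.01 and 10.2 times higher there, Far2 6.61 and 8.73 times and Soat1 7.45 and 5.61 times. Clca3a2 was only 2.00 and 2.23 times higher, the smallest value of the 10 in both sections. The log2 ratio between the sections inside these spots was -1.43 (-1.55 to -1.31), and all 10 genes were lower. The share of all genes that were lower in these spots was not computed, so nothing is read from that count. These spots were the upper 10% of each section by rank and not by a common marker level. They differed in depth (median 4527.5 against 2219 UMIs) and in multi-gene share (63.6% against 44.2%). Scd1 made up 53.0% and 69.1% of the UMIs of this marker list, so the choice rested on Scd1 in large part. The sum of the list differed little between the sections (1433 against 1328 CPM, log2 ratio -0.11, -0.17 to -0.05). Of its 10 tested markers 3 were at least 2-fold lower and none higher, against 4.77% and 26.1% of all 16838 genes. The sum of the list rested on Scd1, which was higher in the K14-Cre section (log2 ratio 0.27). Mgst1, Dgat2l6, Cidea, Pparg and Acsbg1 were lower (log2 ratios -0.48, -1.53, -1.29, -1.11 and -0.98). Awat2, Plin5 and Fads2 were higher and Elovl3 and Mc5r lower, with intervals that span both signs.

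Spots rich in other cell types held less of the 10 genes in sum. In the upper 10% of spots by keratinocyte markers the 10 genes held 314 CPM (Cre-negative) and 209 CPM (K14-Cre), 0.16 and 0.32 times the level of the rest. Not every gene was far below the rest. Sdr16c6 was at 131 CPM (74 UMIs) in these Cre-negative spots against 189 CPM elsewhere, and Clca3a2 at 0.67 times the level elsewhere (17 UMIs). In the K14-Cre section Sdr16c6 was at 0.73 times the rest (14 UMIs), Clca3a2 at 1.03 times (3 UMIs) and Scd3 at 1.37 times (8 UMIs). In Cre-negative spots rich in late keratinocyte markers Sdr16c6 held 63 of the 133 UMIs of the 10 genes. Muscle-rich spots held 723 and 79.7 CPM, and adipocyte-rich spots 1005 and 353 CPM. In K14-Cre adipocyte-rich spots Clca3a2 was at 29.7 CPM (9 UMIs), 4.18 times the rest. That was above its 19.1 CPM (5 UMIs) in the gland-rich spots of that section. Spots rich in hair follicle markers held 1833 and 788 CPM, 1.05 and 1.34 times the level of the rest, but those markers gave only 31.0 and 67.8 CPM in all. Of the 8 marker lists, that of the gland gave the highest level of the 10 genes in both sections.

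**Figure D4:**
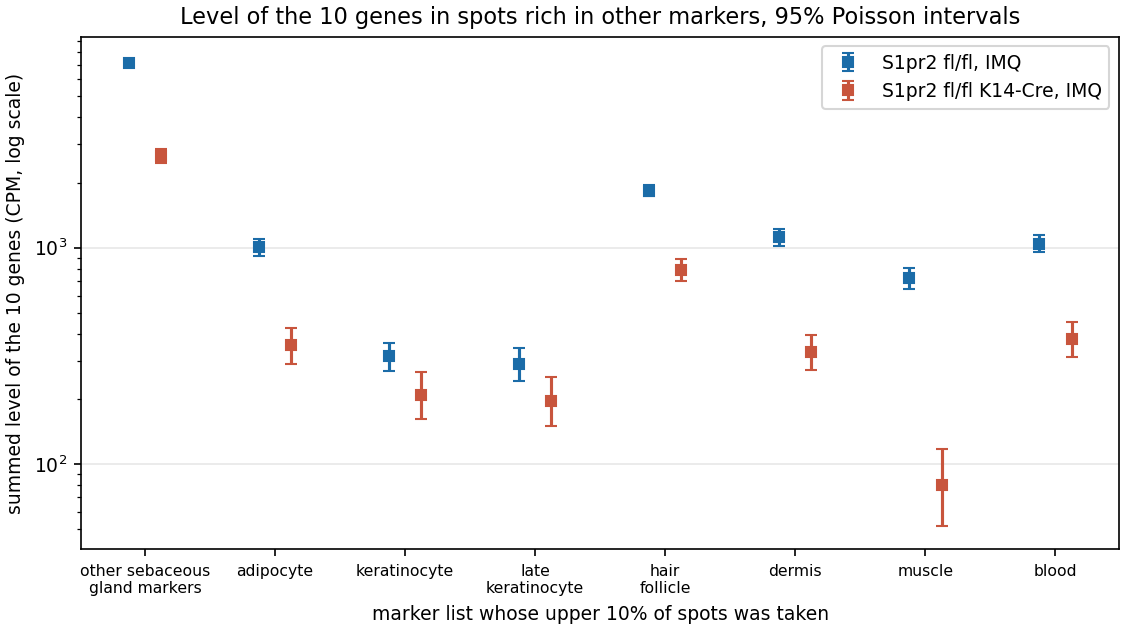
Summed level of the 10 genes (CPM, log axis) in the upper 10% of spots by each marker list, in the Cre-negative section and the K14-Cre section, 1 library each, with 95% Poisson intervals. The level is highest in spots rich in other sebaceous gland markers (7138 and 2652 CPM) and lies lower in the K14-Cre section for every list.

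The level of the genes changed with distance from keratinocyte-rich spots. Distance was counted in steps of the array from the nearest keratinocyte-rich spot, among spots with at least 500 UMIs. The summed level was highest at 2 steps in both sections, at 3578 CPM (Cre-negative) and 2081 CPM (K14-Cre). At 1 to 2 steps the log2 ratio was -0.65 (-0.75 to -0.55; 2366 against 1506 CPM). At 3 to 5 steps it was -2.18 (-2.32 to -2.05; 2217 against 489 CPM), and at 6 steps or more -2.45 (-2.70 to -2.22; 1064 against 194 CPM). The intervals of the nearer and the farther spots did not overlap. Multi-gene spots lay a median of 4 steps away in the Cre-negative section (rank interval, 3 to 4) and 2 steps away in the K14-Cre section (2 to 2), while all spots lay at 4 in both. Spots with at least 5 of the genes lay at 3 and 2 steps. Distance to a keratinocyte-rich spot need not be depth in the skin. Keratinocyte-rich spots were the upper 10% of each section by rank and not by a common marker level. The keratinocyte marker sum was 41179 against 13443 CPM, so the distances may start from unlike spots in the sections. Multi-gene spots without another multi-gene spot beside them numbered 11 of 438 and 13 of 112, and the largest connected group held 140 and 18 spots.

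**Figure D5:**
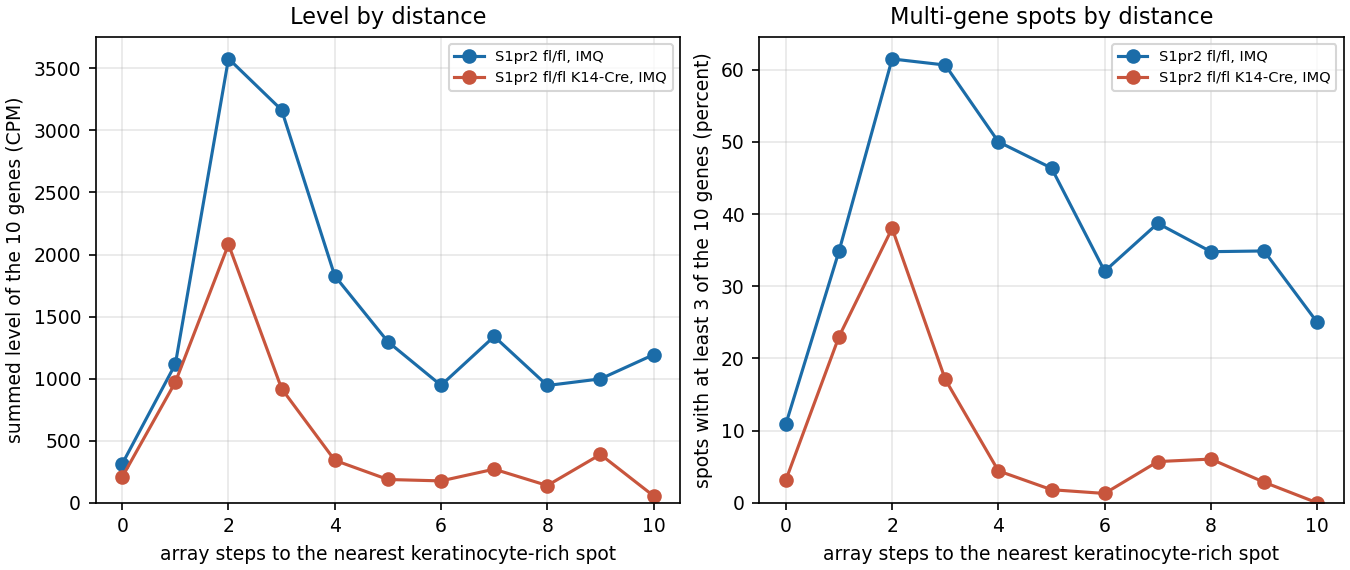
Summed level of the 10 genes (CPM, left) and share of multi-gene spots (percent, right) against the number of array steps to the nearest keratinocyte-rich spot, for the Cre-negative section and the K14-Cre section. Both lines peak at 2 steps (3578 and 2081 CPM), and the K14-Cre line falls to 343 CPM at 4 steps, where the Cre-negative line is at 1828 CPM.

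Paralogs of the 10 genes did not all go the same way. Scd1, the main skin desaturase, had 4037 UMIs (759 CPM) against 2611 UMIs (917 CPM), a log2 ratio of 0.27 (0.20 to 0.34), opposite in sign to Scd3, although scaling by the TMM factor, which edgeR computes from the genes that differ least, turned it to -0.10. Inside multi-gene spots, whose choice depends on depth, Scd1 was at 1063 CPM in the Cre-negative section and 2427 CPM in the K14-Cre section. Far1, the other fatty acyl-CoA reductase, was lower like Far2 (167 against 76.3 CPM, log2 ratio -1.13, -1.35 to -0.92). So were Dgat2l6 (28.4 against 9.84 CPM, from 151 and 28 UMIs) and Dgat2 (282 against 129 CPM), relatives of Awat1, and Sdr16c5 (153 against 66.4 CPM). Awat2, the other wax ester synthase, had 19 and 11 UMIs, of which 15 and 11 lay in multi-gene spots. Soat2 had 33 and 26 UMIs. Among relatives of Clca3a2, Clca2 was lower (152 against 27 UMIs), while Clca3a1 (76 against 55 UMIs) and the other 4 had few UMIs. The K14-Cre counts of Dgat2l6 and Clca2 lie within the range of the receptor genes there, below their 99th percentile of 45 UMIs. The 99th percentile of the receptor genes was 29 UMIs in the Cre-negative and 45 UMIs in the K14-Cre section. Sec14l3 (3 and 0), Ces2e (17 and 20) and Ces3a (11 and 12) were below it in both. Scd4 (26 and 52 UMIs) was above it in the K14-Cre section only, and its log2 ratio of 1.90 (1.20 to 2.64) was opposite in sign to that of Scd3. Ces1d (47 and 38) was above it in the Cre-negative section only. Sec14l2 (203 and 70) and Scd2 (959 and 750) were above it in both. Which members share probes is not given in the sources used here.

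Lists of other lipid genes were set beside the 10. Of 81 genes of 7 lists that had 30 UMIs or more, 10 were at least 2-fold lower and 5 at least 2-fold higher, with a median log2 ratio of -0.24. Of all 16838 genes, 4.77% were lower and 26.1% higher by this measure, with a median of 0.34, and the counts of each list below stand beside the same shares. With at least 100 UMIs the shares of all genes were 6.92% lower and 6.73% higher, so they depend on genes with few UMIs. None of 19 cholesterol synthesis genes passed 2-fold in either direction, and their median was -0.44. Hmgcs1 (304 against 246 CPM) and Msmo1 (317 against 161 CPM) were among those with the most UMIs. Of 7 fatty acid synthesis genes none passed either, and Fasn (420 against 511 CPM), Acly (322 against 240 CPM) and Acacb (151 against 200 CPM) led that list. The sign of Fasn turned with the TMM factor (-0.09). Among 12 desaturation and elongation genes 2 were lower and 3 higher. Elovl4, which makes very long chain fatty acids, was lower (1452 against 459 CPM, log2 ratio -1.66, -1.75 to -1.58), while Scd1 and Scd2 (180 against 264 CPM) were within 2-fold. In the wax ester list 2 of 8 were lower, and Acsbg1 (243 against 123 CPM), Acsl5 (147 against 141 CPM) and Far1 had the most UMIs. In the triglyceride and droplet list 2 of 11 were lower, Dgat2 among them, and Plin2 (273 against 154 CPM) and Mgll (274 against 141 CPM) were within 2-fold. The peroxisome list had 2 lower and 2 higher of 13, with Hsd17b4 (150 against 220 CPM) and Gnpat (107 against 179 CPM) within 2-fold. In the list of gland regulators and markers 2 of 11 were lower. Mgst1 (273 against 196 CPM), Mki67 (191 against 122 CPM) and Rxra (150 against 79.8 CPM) had the most UMIs there. Mki67 and Rxra are not particular to the gland.

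The same lists were compared between multi-gene and other spots of a section. In the Cre-negative section 17 of 77 list genes were at least 2-fold higher in multi-gene spots, against 2.97% of all 12322 genes. In the K14-Cre section 25 of 72 were, against 15.2% of all 12851 genes. The multi-gene spots held 56.9% of all UMIs of the Cre-negative section and 15.6% of those of the K14-Cre section, so a gene of the same level had fewer UMIs there. The contrast in tissue also differed between the sections. Muscle markers in multi-gene spots were at 0.63 (Cre-negative) and 0.079 times (K14-Cre) their level in the other spots. Keratinocyte markers were at 0.78 and 1.44 times. The enrichments of the 2 sections are therefore not like for like. Cholesterol synthesis genes accounted for 12 of the 25 (of 18 tested) and for 2 of the 17 (of 19 tested). Hmgcs1, which makes the HMG-CoA from which the pathway starts, was 1.49 and 2.79 times higher in multi-gene spots. The difference between the sections in these enrichments was not tested.

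The genes most like the 10 by enrichment in multi-gene spots were ranked by the lower of the values of the sections. The ranking covered 11353 genes with at least 30 UMIs in each section. Multi-gene spots are not gland spots alone, as their shares in the marker-rich spots above show. The contrast in muscle and keratinocyte markers given above applies to these enrichments too. The 15 highest that are not members were Serpina3b, Cyp1a1, Gm13178, Cers4, Pctp, Mgll, Tmem56, Clstn3, Oxct2b, Lhpp, Gpr21, Panx3, Il13ra2, Aadac and Hacd2. Cers4, a ceramide synthase, had the most UMIs, 1587 and 538, and was 4.35 and 11.2 times higher in multi-gene spots. Mgll, a monoacylglycerol lipase, was 4.24 and 4.63 times higher, and Cyp1a1, a target of the aryl hydrocarbon receptor, 4.70 and 6.28 times. The 10 genes themselves ranged from 2.83 (Clca3a2) to 12.0 times (Awat1) in the Cre-negative section and from 2.78 (Clca3a2) to 19.97 times (Sec14l4) in the K14-Cre section, values that the choice of the spots fixes. Cyp1a1 was not lower over the K14-Cre section (30.3 against 37.2 CPM, log2 ratio 0.30, -0.07 to 0.66), though the TMM factor turned the sign to -0.07. Inside multi-gene spots Cyp1a1 was higher there (46.0 against 128 CPM, log2 ratio 1.48, 1.01 to 1.94), as was Cers4 (447 against 817 CPM, log2 ratio 0.87, 0.70 to 1.04). Over all spots Cers4 was lower in the K14-Cre section (299 against 189 CPM, log2 ratio -0.66, -0.80 to -0.52). The ratios inside multi-gene spots depend on the choice of the spots, and no other choice was tried for these genes. With a minimum of 10 UMIs in each section, 2 of the 15 remained among the highest, so the list rests on that minimum.

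The promoters of the genes were looked at because the genes were found together in spots. RefSeq promoters of GRCm38.p6, the assembly also called mm10, were matched by symbol for 8 of the 10 genes. The 250 bases before the start were searched on both strands for 5 short motifs. The sterol element (TCACNCCAC), the E-box (CACGTG) and the TATA box (TATAAA) were in 0 of the 8. Over all 32851 promoters these letters were in 1.05%, 6.02% and 12.4%. The GC box (GGGCGG) was in 2 of the 8, Rarres1 and Far2, and in 32.7% of all promoters. The nuclear receptor half-site (AGGTCA) was in 1 of the 8, Ces4a, and in 14.02% of all promoters. The motifs do not overlap in letters. Shown are the 3 promoters with a match, with the match in capitals, and that of Awat1, the gene most concentrated in Cre-negative multi-gene spots, which has none. All are written 5′ to 3′ on the strand of the gene. They are chrX:100571997-100572246 (plus strand) for Awat1, chr6:148047166-148047415 (plus) for Far2, chr8:105131550-105131799 (plus) for Ces4a and chr3:67515524-67515773 (minus) for Rarres1.
Awat1: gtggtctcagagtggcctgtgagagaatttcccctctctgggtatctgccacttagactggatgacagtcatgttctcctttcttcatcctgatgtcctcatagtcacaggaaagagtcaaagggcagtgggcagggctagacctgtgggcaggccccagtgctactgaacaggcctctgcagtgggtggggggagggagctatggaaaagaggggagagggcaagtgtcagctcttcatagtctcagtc
Far2: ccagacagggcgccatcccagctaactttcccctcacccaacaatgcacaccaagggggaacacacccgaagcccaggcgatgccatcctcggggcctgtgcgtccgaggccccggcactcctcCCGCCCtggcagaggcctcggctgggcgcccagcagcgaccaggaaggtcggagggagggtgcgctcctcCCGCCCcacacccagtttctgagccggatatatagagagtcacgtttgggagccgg
Ces4a: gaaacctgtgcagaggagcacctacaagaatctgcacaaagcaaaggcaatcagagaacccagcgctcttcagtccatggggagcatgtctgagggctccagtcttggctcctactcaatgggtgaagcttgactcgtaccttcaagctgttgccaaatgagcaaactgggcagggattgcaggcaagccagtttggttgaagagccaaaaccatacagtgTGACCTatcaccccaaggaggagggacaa
Rarres1: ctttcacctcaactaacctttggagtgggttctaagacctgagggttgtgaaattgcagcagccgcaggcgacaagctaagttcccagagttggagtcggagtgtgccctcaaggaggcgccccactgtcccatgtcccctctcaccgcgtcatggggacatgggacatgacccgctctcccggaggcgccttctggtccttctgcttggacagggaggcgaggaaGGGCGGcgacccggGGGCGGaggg
The capitals of Ces4a lie 29 bases before the start and those of Rarres1 at 24 and 10 bases before it. In Far2 they lie at 126 and 56 bases before the start. No motif was shared by more than 2 of the 8 promoters. A match is a string of letters and not measured binding.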

How the data were processed

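Visium CytAssist libraries of FFPE skin were measured in 1 section per genotype. Counts deposited by the authors were raw UMIs of each gene in each tissue spot, not normalized, beside a table of array positions. Per the labels and the file headers, reads were processed with Space Ranger 3.0.0 on mm10. The probe set is not given in the sources used here. The deposited counts were summed over spots and divided by all UMIs of the same spots (CPM). Poisson intervals (counts), Clopper-Pearson intervals (shares) and conditional binomial intervals (ratios) were exact and cover counting error only. A count of 0 was taken to allow 3 counts. No test between the sections was possible with 1 library per genotype. The 10 genes, the marker lists and the lipid gene lists were chosen with earlier results of these data known.

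A spot was positive with at least 1 UMI of a gene, and a multi-gene spot held at least 3 of the 10 genes. Thinning drew 1000 UMIs without replacement from each spot with at least 1000 (seed 1). Fold counts took genes with at least 30 UMIs, and enrichments added 0.5 UMIs. Keratinocyte-rich and other marker-rich spots were the upper 10% by summed CPM among spots with at least 500 UMIs. Named genes were the 10 genes, their paralogs, the 15 genes most alike, and the 3 genes with the most UMIs of each lipid list. Some genes that this rule names are not reported here. Other genes named in the text were chosen after their values were seen. Python 3.11.15, numpy 2.4.6, scipy 1.17.1 and pandas 2.3.3 were used, and edgeR 4.0.16 (R 4.3.3) gave the TMM factor used as an alternative. The interval and fold were checked on simulated counts. Promoters came from RefSeq (GRCm38.p6).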

Additional observations from a re-analysis of the deposited data

How the results depend on the processing

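No paired analysis was possible because each genotype has 1 library. The summed log2 ratio of the 10 genes stayed below 0 in all 18 settings, from -1.89 to -1.16. Most of these settings left out 1 gene, and none compared spots of like depth. Among spots with 500 to 2000 UMIs the summed level was 710 against 664 CPM. The summed log2 ratio was -1.89 with the TMM factor and -1.65 with the mean receptor gene UMIs taken off each gene. It was -1.16 as a mean over spots of CPM, -1.42 without Far2 and -1.34 in spots within 5 steps of a keratinocyte-rich spot. That last setting, the choice of spots on drawn UMIs, the choice by other gland markers and the removal of the first 4 array columns (left edge only) were added after seeing the data. Each of the 10 genes also stayed below 0 under all 6 settings tried for single genes, and 6 to 10 of them were at least 2-fold lower. There were 10 with the TMM factor (11.6% of all genes) and 9 with the receptor gene UMIs taken off (18.0% of all genes). As a mean over spots of CPM there were 6 (4.77% of all genes). For the other settings the share over all genes was not computed. Clca3a2 moved from -2.21 to -3.57 with the receptor gene UMIs taken off, and Scd3 from -0.85 to -0.33 as a mean over spots. The log2 ratio inside multi-gene spots was -0.21 with a minimum of 2 genes per spot, 0.043 without Far2, -0.48 with spots chosen on 1000 drawn UMIs and -1.43 in spots chosen by other gland markers, so no single level ratio per spot can be given. Positive spots (Cre-negative, then K14-Cre) were 54.1% and 28.5% after thinning to 1000 UMIs and 44.7% and 19.8% with 2 UMIs of a gene required. In the Cre-negative section they were 74.2% among spots with at least 500 UMIs and 68.9% in connected groups of at least 20 spots. Multi-gene spots were 12.2% and 4.60% after thinning, 46.96% and 18.2% with a minimum of 2 genes, 24.8% and 6.22% with a minimum of 4, and 44.5% and 15.4% within 5 steps of keratinocyte-rich spots. The Cre-negative share was 39.9% among spots with at least 500 UMIs. Median pair overlap was 9.55% and 5.88% after thinning. Of the list genes, 28 were at least 2-fold lower and 1 higher with the TMM factor, against 11.6% and 16.7% of all genes. With the receptor gene UMIs taken off, 26 were lower, against 18.0% of all genes. With at least 100 UMIs, 10 of 71 were lower and 3 higher, against 6.92% and 6.73% of all genes. Of the 15 genes most alike, 2 stayed with a minimum of 10 UMIs in each section. Counts limit Clca3a2 and Scd3 the most, and the section, position in the skin and genotype cannot be told apart.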
